A study of Aconitum japonicum with 4 samples.

Results

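The transcripts described here are those that were abundant in the leaf of *Aconitum japonicum* and close to absent from its roots. They were chosen by their measured levels, as transcripts with at least 100 FPKM in leaf and at most 5 FPKM in each of mother root, daughter root and rootlet, where FPKM is the number of fragments per kilobase of effective transcript length per 1000000 mapped fragments. The effective length counts the positions at which a fragment can start and was 147.04 to 148.43 bases (medians of the 4 libraries) shorter than the length printed here, which raises the FPKM of the shortest member 2.95-fold over that from its full length. A total of 194 of the 129760 assembled transcripts met this rule (0.150% of all transcripts, and 12.8% of the 1517 transcripts with at least 100 FPKM in leaf). *A. japonicum* is a monkshood grown for its diterpene alkaloids, and the plants came from a greenhouse, with no treatment and no mutant line among the groups. RNA was sequenced from leaf, mother root (the tuber of the current plant), daughter root (the new tuber beside it) and rootlet (the fine lateral root). Each tissue had 1 library, made from a single biological replicate, so no difference between tissues can be set against the spread between plants, and no test was made. Since leaf and root levels chose the transcripts, the contrast between leaf and roots is given below as a description. The order of the 3 roots among themselves, the identities, the lengths and the other transcripts of the same genes were not fixed by the rule, although the root levels were all capped at 5 FPKM.

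Leaves are the main site of photosynthesis. There, pigment-protein complexes of the thylakoid membrane pass electrons along a chain that includes a Rieske iron-sulphur protein and ferredoxin, ferredoxin-NADP reductase passes them on to NADP, and Rubisco fixes carbon dioxide with the help of Rubisco activase. Leaf surface cells also secrete a waxy cuticle, to which lipid transfer proteins are thought to bring lipids, and small cysteine-rich defensins are part of plant defence. Roots hold plastids too, but these are largely without chlorophyll.

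The leaf library held 4516426 assigned fragments, and the mother root, daughter root and rootlet libraries held 11801534, 12792781 and 4492151. The 194 transcripts took 345367 fragments in leaf, which is 7.65% of that library. In the roots, the same transcripts together took 1676 mother root, 1519 daughter root and 485 rootlet fragments. Per 1000000 fragments of the library this was 76469 for leaf (95% Poisson limits 76214 to 76725), against 142 for mother root (135 to 149), 119 for the daughter root (113 to 125) and 108 for the rootlet (98.6 to 118). Such limits, here and below, cover counting error alone and say nothing of variation between plants. In whole tissues, fewer cells of a kind and less RNA per cell cannot be told apart.

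Within the set, leaf levels ran from 101.57 to 10716.5 FPKM with a median of 250.96 FPKM. The quartiles lay at 152.41 and 600.0 FPKM, 86 transcripts were below 200 FPKM and 29 reached 1000 FPKM. The medians in the roots were 0.29 FPKM in mother root, 0.18 FPKM in daughter root and 0.12 FPKM in rootlet. With 1 added to both FPKM values, leaf over the average root on a log2 scale ran from 4.99 to 11.64 with a median of 7.43, whereas the median over all 129760 transcripts was 0.09. The leaf values were unevenly spread, and the 10 transcripts of highest leaf FPKM held 27.5% of the leaf fragments of the set.

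**Figure D1:**
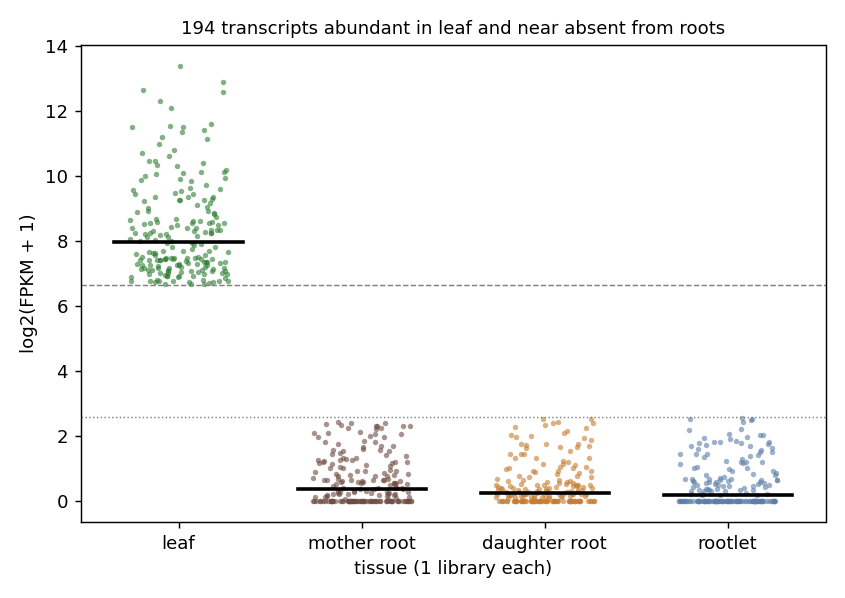
FPKM of the 194 transcripts in leaf, mother root, daughter root and rootlet on a log2(FPKM + 1) scale, with 1 point per transcript and library and a black line at each median. The dashed line marks 100 FPKM and the dotted line 5 FPKM, the limits used to choose the transcripts, and the medians are 250.96 FPKM in leaf, 0.29 in mother root, 0.18 FPKM in daughter root and 0.12 FPKM in rootlet.

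The descriptions that could be matched to the set cover a small part of it. The annotation tables at hand are shortened copies, and 23 of the 194 transcripts were found in them, of which 13 carried a description and 10 carried none. Of the 13 described transcripts, 11 stood in a list that had been compiled from transcripts seen in leaf and in no root library, so their lack of root fragments follows from that choice. The other 2 were a ferredoxin-NADP reductase and a defensin, taken from the list of transcripts seen in all tissues. The remaining 171 transcripts were not found in these copies, and nothing is said of their function.

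Photosynthesis was the largest described group, with 6 of the 13. TR14663|c0_g1_i1, described as ferredoxin-NADP reductase, the enzyme that passes electrons from ferredoxin to NADP, had 174.92 FPKM in leaf from 367 fragments, against 1.28 FPKM in mother root (7 fragments), 2.35 FPKM in daughter root (14 fragments) and 1.92 FPKM in rootlet (4 fragments). It was thus seen in every tissue, and its leaf level was 137-fold that of mother root (95% counting limits 65.9 to 344), 74.5-fold that of daughter root (43.8 to 138) and 91.3-fold that of rootlet (35.4 to 337). The counting limits of the 3 root values overlapped. TR39184|c1_g2_i1, a ferredoxin precursor and so of the protein that hands electrons to that reductase, had 223.72 FPKM in leaf from 528 fragments, against 0 fragments in each root library. With a floor of 3 fragments per root library in place of 0, its leaf level was at least 460-fold higher than in mother root, at least 499.8-fold higher than in daughter root and at least 175-fold higher than in rootlet. From the same read cluster but with no description at hand, TR39184|c1_g1_i1 was in the set too, with 152.39 FPKM in leaf, against 0.92 FPKM in mother root (6 fragments), 0.14 FPKM in daughter root (1 fragment) and 0 in rootlet.

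Other transcripts of this group were at 0 in the roots. TR36080|c0_g1_i1, described as a Rieske iron-sulphur precursor, had 101.97 FPKM in leaf from 371 fragments and no fragment in mother root, daughter root or rootlet. Rieske proteins carry electrons both in the chloroplast and in the mitochondrion, and the description does not say which of these it is. TR36478|c0_g1_i1, a thylakoid lumenal protein and so of the space inside the photosynthetic membrane, had 298.91 FPKM in leaf from 669 fragments, again with no root fragment. TR29275|c0_g1_i1 and TR29275|c0_g1_i2, both described as Rubisco activase 1, the chaperone that frees the carbon-fixing enzyme of bound inhibitors, had 129.75 and 127.89 FPKM in leaf and 0 in all roots. The third transcript of the same read cluster, TR29275|c0_g2_i1, was also in the set with 373.05 FPKM in leaf, 0.42 FPKM in mother root from 2 fragments, and 0 FPKM in daughter root and rootlet.

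A list of photosynthesis terms matched 28 transcripts in the annotation at hand, of which 6 were in the set and 26 were highest in leaf. Over all transcripts 39.4% were highest in leaf, and the median log2 of leaf over the average root was 4.00 for the list, against 0.09 overall. However, 21 of the 28 came from the leaf-only list. Of the 6 that were not chosen for a tissue, 5 were highest in leaf, 1 was in the set, and the median log2 ratio was 2.39. Another matched transcript passed 50 FPKM in leaf without entering the set, the ferredoxin family transcript TR14207|c0_g1_i1. It had 124.94 FPKM in leaf, against 10.84 FPKM in mother root, 17.11 FPKM in daughter root and 4.83 FPKM in rootlet. The matched chlorophyll a/b-binding transcripts, which encode the light-harvesting antenna and define green tissue, were short and at low levels. They came from the leaf-only list and had 15.55 FPKM (TR22951|c0_g1_i1), 18.58 FPKM (TR33499|c0_g1_i1), 28.21 FPKM (TR30795|c0_g1_i1) and 32.84 FPKM (TR34076|c0_g1_i1) in leaf and 0 in all roots, and so lay below the leaf limit. That list leaves out any transcript with a root fragment, so the level of the antenna transcripts in leaf is not read from these. The photosystem II cytochrome b559 transcript TR836|c0_g1_i1, which was not chosen for a tissue, had 23.67 FPKM in leaf, against 0.19 FPKM in daughter root (1 fragment) and 0 in the other roots. Other photosystem transcripts not chosen for a tissue were near the detection limit. TR12495|c0_g1_i1, of the photosystem II reaction center, had 2.18 FPKM in leaf from 5 fragments, against 0.50 FPKM in mother root, 0.15 FPKM in daughter root and 0.44 FPKM in rootlet, and TR1653|c0_g1_i1, with a psbP domain, had 2.21 FPKM in leaf from 7 fragments, against 0.48 FPKM in mother root, 0.22 FPKM in daughter root and 0 in rootlet. The matched transcripts that were not highest in leaf were also near that limit. TR17798|c0_g1_i1, described as a Rubisco activase 1 precursor and not chosen for a tissue, had 0.69 FPKM in leaf from 1 fragment. Its root values were 0.79 FPKM in mother root, 0.73 FPKM in daughter root and 0.69 FPKM in rootlet, from 3, 3 and 1 fragments. A thylakoid lumenal transcript of the rootlet-only list, TR56003|c0_g1_i1, had 6.62 FPKM in rootlet (3 fragments) and 0 in leaf. The matched transcripts are few, and the leaf label was not checked beyond them.

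Lipid-related descriptions formed the next group. TR27637|c0_g1_i1, described as phospholipase A1-Igamma1, of a family that cleaves a fatty acid from membrane lipids, had 763.08 FPKM in leaf from 457 fragments, and TR34290|c1_g1_i1, a lipid transfer protein, had 479.08 FPKM from 778 fragments. TR26254|c0_g1_i1, a phospholipase D, which removes the head group of a phospholipid, had 154.29 FPKM from 66 fragments. None of the 3 had a fragment in a root library, which puts the leaf level of TR27637|c0_g1_i1 at least 152-fold higher than in rootlet and that of TR34290|c1_g1_i1 at least 258-fold higher, while the shallow and short TR26254|c0_g1_i1 allows only at least 21.9-fold. The lipid list matched 39 transcripts, 26 of them highest in leaf, with a median log2 ratio of 3.06. Among the 10 not chosen for a tissue, 4 were highest in leaf, none was in the set and the median log2 ratio was -0.54, and 22 of the 26 that were highest in leaf came from the leaf-only list.

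Several lipid-related transcripts lay just outside the set. The temperature-induced lipocalin TR16437|c0_g1_i1, of a family of small carriers of hydrophobic molecules, had 98.47 FPKM in leaf and 0 in the roots. A GDSL esterase lipase, TR29461|c0_g1_i1, had 74.99 FPKM and a delta 9 desaturase, TR39099|c0_g1_i1, which introduces a double bond into fatty acids, had 74.45 FPKM in leaf, each with 0 in the roots. A second lipid transfer transcript, TR15762|c0_g1_i1, had 77.08 FPKM in leaf, against 1.19 FPKM in mother root, 0.37 FPKM in daughter root and 7.33 FPKM in rootlet.

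Of the matched defensins, 3 passed 50 FPKM in leaf, and 1 of these was in the set. TR15507|c0_g2_i1 had 304.13 FPKM in leaf from 498 fragments, against 0.47 FPKM in mother root (2 fragments), 0.21 FPKM in daughter root (1 fragment) and 1.84 FPKM in rootlet (3 fragments). A transcript of the same Trinity gene with no description at hand, TR15507|c0_g2_i2, was also in the set with 375.76 FPKM in leaf, against 0.70 FPKM in mother root (3 fragments), 0 in daughter root and 2.45 FPKM in rootlet (4 fragments). From the same read cluster, the defensin TR15507|c0_g1_i1 had 853.76 FPKM in leaf, against 18.88 FPKM in mother root, 2.69 FPKM in daughter root and 24.82 FPKM in rootlet. The third, TR15777|c0_g1_i1, had 1400.33 FPKM in leaf, against 18.64 FPKM in mother root, 1.47 FPKM in daughter root and 44.87 FPKM in rootlet. In all 3 defensins, rootlet had the highest and daughter root the lowest root value, although in TR15507|c0_g2_i1 these rested on 3 fragments and 1 fragment. In TR15507|c0_g1_i1 the rootlet and mother root values rested on 42 and 84 fragments, with overlapping counting limits, so no order between them is read. As it came from the same read cluster as TR15507|c0_g2_i1, the shared order is not 3 separate observations. In the wider defence list, 3 of 15 transcripts were highest in leaf, with a median log2 ratio of -1.60. However, 7 of the 15 came from a list of transcripts seen only in rootlet, so their absence from leaf follows from that choice. Of the 8 not chosen for a tissue, 3 were highest in leaf, beside 39.4% of all transcripts, and their median log2 ratio was -0.70. Also in the defence list, the pathogenesis-related 1 transcript TR17268|c0_g1_i1, of a family of secreted proteins induced by infection, had 135.94 FPKM in leaf, against 15.29 FPKM in mother root, 345.8 FPKM in daughter root and 7.03 FPKM in rootlet.

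The other 3 described transcripts belong to none of these lists. TR15185|c0_g1_i1, a xyloglucan endotransglucosylase/hydrolase, an enzyme that cuts and rejoins cell wall xyloglucan, had 340.2 FPKM in leaf. TR34759|c0_g1_i1, described as gibberellin-regulated 2 precursor, of a family of small secreted peptides, had 121.18 FPKM, and TR28349|c0_g1_i1, an ABC transporter of the C family, whose members move conjugated compounds into the vacuole, had 108.82 FPKM. All 3 had 0 fragments in each root library.

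**Figure D2:**
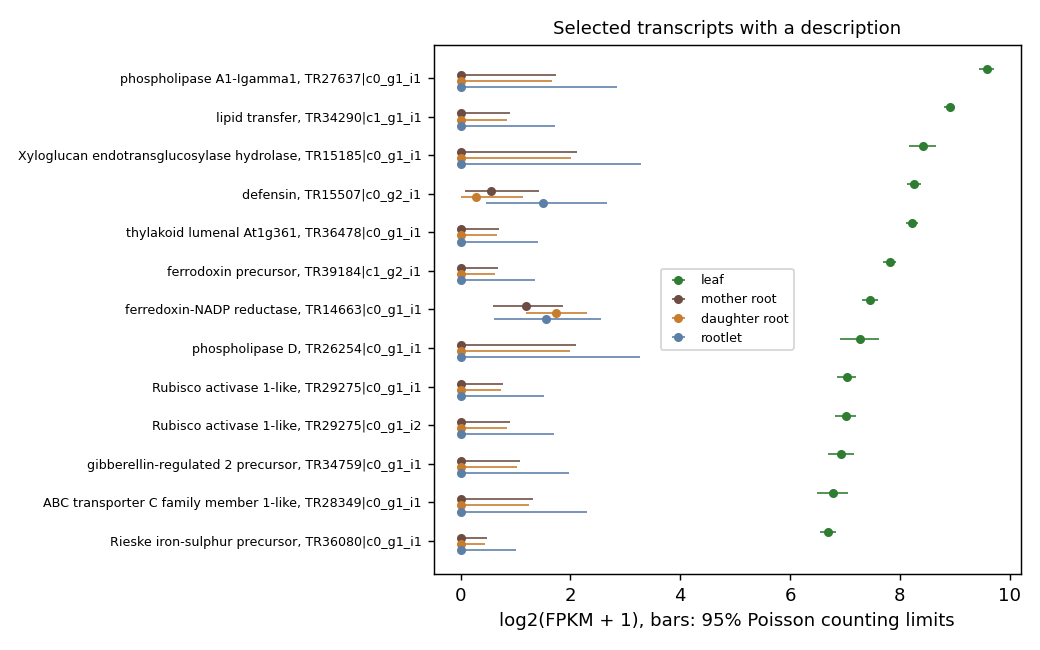
Levels of the 13 described transcripts on a log2(FPKM + 1) scale, each with its leaf, mother root, daughter root and rootlet value and 95% Poisson counting limits as bars. All leaf points lie at or above 101.97 FPKM, and ferredoxin-NADP reductase and the defensin are the only rows with root points above 0.

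The transcripts of highest leaf level carried no description in the tables at hand. TR34678|c1_g1_i1, of 711 bases, led the set with 10716.5 FPKM in leaf from 27228 fragments, against 2.11 FPKM in mother root (14 fragments), 2.36 FPKM in daughter root (17 fragments) and 3.16 FPKM in rootlet (8 fragments). It was seen in all roots, and its leaf level was 5087-fold that of mother root (3031 to 9305), 4548-fold that of daughter root (2840 to 7808) and 3386-fold that of rootlet (1718 to 7844). TR44121|c5_g1_i2 had 7638 FPKM in leaf, against 1.61 FPKM in mother root, 1.48 FPKM in daughter root and 1.81 FPKM in rootlet. Its companion from the same assembled gene, TR44121|c5_g1_i1, had 6499 FPKM in leaf, against 4.14 FPKM in mother root, 1.0 FPKM in daughter root and 0.57 FPKM in rootlet. In the roots the first rested on 7, 7 and 3 fragments in mother root, daughter root and rootlet. Its counting limits overlapped, so no highest root is read from it. The second rested on 19, 5 and 1 fragments in the same order. Its limits in mother root (2.49 to 6.46 FPKM) lay above those in daughter root (0.33 to 2.34 FPKM) but overlapped those in rootlet (0.01 to 3.19 FPKM).

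The next in order was TR33365|c2_g1_i2 with 6178 FPKM in leaf, against 0 in mother root, 2.19 FPKM in daughter root and 2.10 FPKM in rootlet. TR34624|c0_g1_i1 had 5161 FPKM in leaf, against 1.88 FPKM in mother root, 2.25 FPKM in daughter root and 0.49 FPKM in rootlet. TR34731|c0_g1_i1 had 2952 FPKM in leaf, against 0.22 FPKM in mother root, 0.30 FPKM in daughter root and 0.86 FPKM in rootlet, where the root values rested on 2, 3 and 3 fragments in the same order. For the 251-base TR33823|c0_g1_i2, with 2983 FPKM in leaf, only 2 fragments were seen in the roots, both in daughter root. The remaining 3 of the top 10 came from 1 read cluster, described next.

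Some members were neighbours in the assembly. Trinity, the assembler, names each transcript by a read cluster, a gene within it and a transcript (isoform) number, and the 194 transcripts fell into 175 such genes and 160 clusters, so they are not 194 separate loci. In cluster TR43969, 6 of 7 transcripts were in the set. Their leaf levels were 4413 FPKM (TR43969|c1_g1_i1), 3138 FPKM (TR43969|c3_g1_i1), 2900 FPKM (TR43969|c3_g2_i1), 1364 FPKM (TR43969|c2_g1_i1), 392.01 FPKM (TR43969|c0_g2_i1) and 161.84 FPKM (TR43969|c0_g1_i2), and no root value exceeded 1.08 FPKM. Cluster TR47648 had 5 of its 7 transcripts in the set, from 578.31 to 2650 FPKM in leaf and at most 2.19 FPKM in any root, and 4 of the 5 formed the whole of the gene TR47648|c2_g1. Outside the set in that cluster, TR47648|c1_g1_i5 had 4138 FPKM in leaf but 20.05 FPKM in mother root, with 0.99 FPKM in daughter root and 0.31 FPKM in rootlet.

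All 3 transcripts of TR40368 were in the set, with 2741, 382.0 and 373.56 FPKM in leaf and at most 0.76 FPKM in a root. Of the 4 transcripts of TR39562, 3 were in the set with 738.56, 653.6 and 179.09 FPKM in leaf, and none of them had a root fragment. No transcript of either cluster reached 1 FPKM in a root.

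Elsewhere a selected transcript shared its gene with root-expressed isoforms. In 159 of the 175 genes all assembled transcripts were in the set. Only 15 of the 175 genes had more than 1 member, so most of the 159 had a single transcript and no isoforms to compare. The other 16 genes had 34 further transcripts, of which 15, in 8 genes, exceeded 5 FPKM in a root. With FPKM summed over each gene, 162 of the 175 genes met the same limits and 13 did not. All deposited counts were whole numbers, and how fragments common to similar isoforms were assigned cannot be read from them, so counting limits may understate the uncertainty between isoforms of a gene.

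The gene TR47361|c1_g1 held the sister transcript with the highest root level. Its selected isoforms TR47361|c1_g1_i5, TR47361|c1_g1_i4 and TR47361|c1_g1_i1, of 701, 512 and 564 bases, had 409.12, 255.18 and 254.68 FPKM in leaf and at most 0.61 FPKM in any root. TR47361|c1_g1_i2, of 1466 bases, had 41.34 FPKM in leaf, against 44.49 FPKM in mother root, 597.46 FPKM in daughter root and 8.78 FPKM in rootlet. Between these, TR47361|c1_g1_i6 had 251.45 FPKM in leaf, against 4.76 FPKM in mother root, 64.94 FPKM in daughter root and 0.78 FPKM in rootlet, and TR47361|c1_g1_i8 had 252.59 FPKM in leaf, against 3.72 FPKM in mother root, 54.86 FPKM in daughter root and 0.98 FPKM in rootlet. Summed over the gene, the level was 1464 FPKM in leaf, against 53.12 FPKM in mother root, 717.45 FPKM in daughter root and 11.15 FPKM in rootlet, so the gene as a whole did not meet the limits.

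The gene TR52743|c4_g3 contained a transcript from the study's list of cytochrome P450 candidates, the oxygenases that decorate terpene skeletons, although none of the 17 listed P450 transcripts was itself in the set. Its selected isoform TR52743|c4_g3_i5, of 603 bases, had 119.83 FPKM in leaf, against 0.74 FPKM in mother root, 0.86 FPKM in daughter root and 0.49 FPKM in rootlet. The longest isoform, TR52743|c4_g3_i1 of 1673 bases, had 24.40 FPKM in leaf, against 173.24 FPKM in mother root, 112.08 FPKM in daughter root and 137.10 FPKM in rootlet. A middle form, TR52743|c4_g3_i9, had 80.22 FPKM in leaf, against 51.51 FPKM in mother root, 34.08 FPKM in daughter root and 34.71 FPKM in rootlet. In both genes the selected isoforms were thus shorter than the isoform with the highest root level. A further case was TR33365|c2_g1, where TR33365|c2_g1_i2, given above, stood beside TR33365|c2_g1_i3 with 14257 FPKM in leaf, against 68.83 FPKM in mother root, 9.52 FPKM in daughter root and 4.32 FPKM in rootlet.

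**Figure D3:**
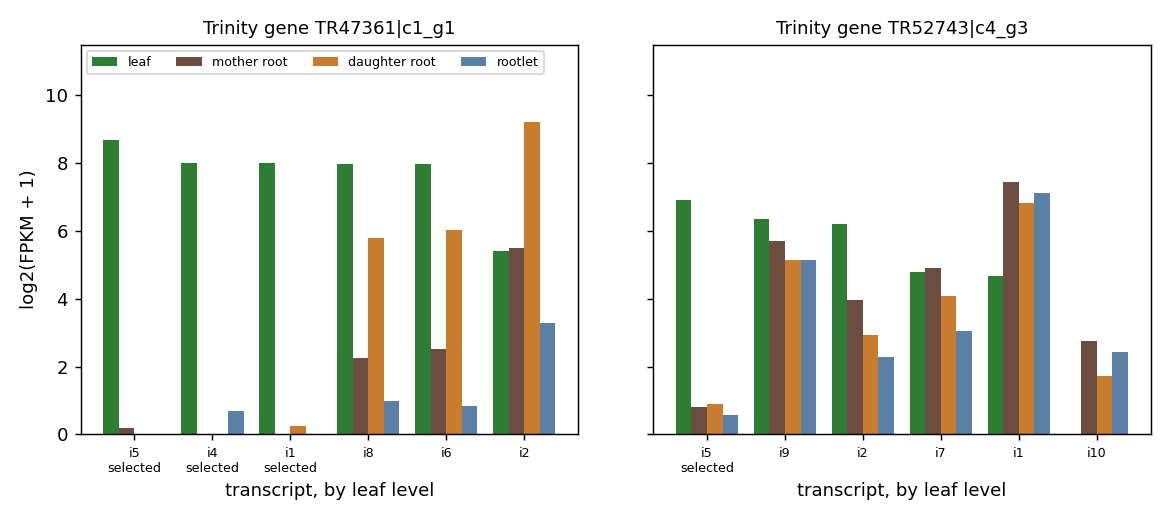
Levels of the isoforms of TR47361|c1_g1 (left) and TR52743|c4_g3 (right) on a log2(FPKM + 1) scale, with bars for leaf, mother root, daughter root and rootlet and the isoforms ordered by leaf level. The selected isoforms have at most 0.61 FPKM (left) and 0.86 FPKM (right) in a root, while TR47361|c1_g1_i2 reaches 597.46 FPKM in daughter root and TR52743|c4_g3_i1 173.24 FPKM in mother root.

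Most of the transcripts were seen in the roots at a trace. Of the 194 transcripts, 160 had a fragment in at least 1 root library and 70 in all 3, while 34 had none in any, 38 had 1 or 2 in total, 70 had at least 10 and 25 at least 50. Zero fragments were counted for 69 transcripts in the mother root, 68 in the daughter root and 96 in the rootlet library, the shallowest of the 3. The 34 without root fragments had a median length of 291.5 bases and a median of 179 leaf fragments, against 796.5 bases and 1028.5 leaf fragments for the other 160. A single fragment on the shortest transcript of the set, of 224 bases, equals 1.11 FPKM in mother root, 1.01 FPKM in daughter root and 2.92 FPKM in rootlet, and for 25 transcripts the 3 fragments taken as a floor would exceed 5 FPKM in rootlet. TR6982|c0_g1_i1, with 2047 FPKM in leaf from 830 fragments and 0 in every root, was the highest of the 34, and at 238 bases its upper 95% counting limit in rootlet was 9.13 FPKM.

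Root levels are given here by leaf level as a description, since the rule bounded both. In 4 equal bins from the lowest to the highest leaf FPKM, the mean was 0.96, 0.98, 0.49 and 0.79 FPKM in mother root, 0.63, 0.78, 0.47 and 0.65 FPKM in daughter root and 0.86, 0.67, 0.67 and 0.42 FPKM in rootlet. Spearman's rho between roots over the 194 transcripts was 0.52 for mother root and daughter root, 0.49 for mother root and rootlet and 0.42 for daughter root and rootlet. The points share libraries and lengths, and the cap at 5 FPKM narrows the range.

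Of the 160 transcripts seen in a root, mother root was the highest in 68 (42.5%), rootlet in 53 (33.1%) and daughter root in 39 (24.4%), where the shares over all transcripts seen in a root were 43.4%, 29.9% and 26.7% in that order. With median-of-ratios scaling the counts were 55, 54 and 51, and at equal depth rootlet was highest in 56.4 and mother root in 53.4 on average over 20 draws, so no order of the roots is read from them. For most transcripts the roots could not be told apart by counting. Among 151 transcripts with a fragment in either tuber, the 95% limits of mother root over daughter root lay above 1 in 21 and below 1 in 12 (13.9% and 7.95%), where the shares over all transcripts were 13.6% and 8.70%. For mother root over rootlet the limits lay above 1 in 12 and below 1 in 10 of 146, with overall shares of 8.53% and 10.8%. For daughter root over rootlet they lay above 1 in 15 and below 1 in 17 of 142, with overall shares of 9.50% and 15.1%. The counts in the set were near these backgrounds, and no preference for a root is read from them.

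Individual transcripts did differ between the root libraries beyond counting error. TR53670|c1_g2_i2, with 651.51 FPKM in leaf and the highest mother root level of the set, had 4.35 FPKM in mother root (88 fragments), 0.09 FPKM in daughter root (2 fragments) and 1.56 FPKM in rootlet (12 fragments), a level in mother root relative to daughter root of 47.7 (12.8 to 400.2). TR53775|c0_g1_i1, of 130.61 FPKM in leaf, had 2.18, 0.18 and 1.0 FPKM in mother root, daughter root and rootlet, with a ratio of 12.4 (5.74 to 31.8). TR43453|c0_g1_i1, of 121.26 FPKM in leaf, had 3.88, 0.44 and 1.41 FPKM in the same order, with a ratio of 8.81 (4.22 to 21.3). All of these were lowest in daughter root.

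The opposite order was seen as well. TR42765|c0_g1_i1, of 363.51 FPKM in leaf, had 4.71 FPKM in daughter root from 88 fragments, against 0.29 FPKM in mother root from 5 fragments and 0 FPKM in rootlet, a level in mother root relative to daughter root of 0.062 (0.020 to 0.149). TR33926|c0_g1_i1, of 1421 FPKM in leaf, had all of its 43 root fragments in daughter root (3.85 FPKM). TR44690|c1_g1_i2, of 143.96 FPKM in leaf, had the highest daughter root level of the set at 4.74 FPKM (26 fragments), against 0.20 FPKM in mother root and 0 FPKM in rootlet. These were transcripts seen almost wholly in the daughter root library among the roots.

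A few separated the tubers from the rootlet. TR52645|c0_g1_i1, the longest of the set at 3720 bases and the one with the most root fragments, had 125.17 FPKM in leaf, against 3.89 FPKM in mother root (164 fragments), 4.22 FPKM in daughter root (193 fragments) and 0.81 FPKM in rootlet (13 fragments). TR41664|c0_g1_i1 had 356.33 FPKM in leaf, against 3.16 FPKM in mother root, 2.81 FPKM in daughter root and 0.14 FPKM in rootlet. TR52324|c2_g1_i1 had the reverse order, with 171.08 FPKM in leaf, against 1.26 FPKM in mother root, 0.95 FPKM in daughter root and 3.47 FPKM in rootlet. The highest rootlet level, 4.78 FPKM for TR53689|c1_g2_i7, rested on 3 fragments of a 288-base transcript and had counting limits of 0.99 to 14.0 FPKM.

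**Figure D4:**
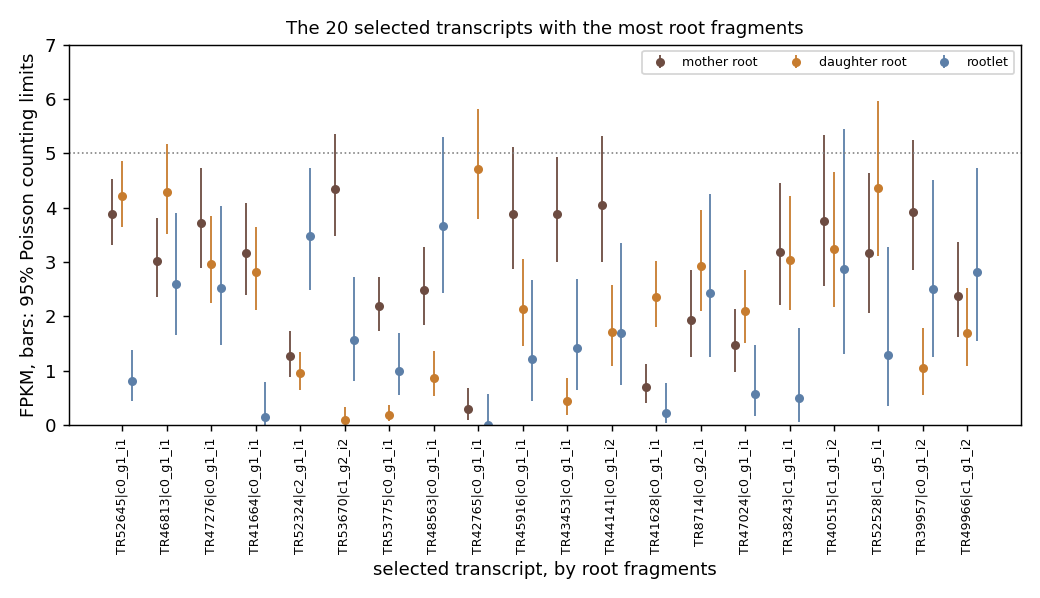
FPKM in mother root, daughter root and rootlet for the 20 transcripts of the set with the most root fragments, with 95% Poisson counting limits as bars and a dotted line at 5 FPKM. TR53670|c1_g2_i2 is high in mother root (4.35 FPKM) and near 0 FPKM in daughter root (0.09 FPKM), and TR42765|c0_g1_i1 the reverse (0.29 and 4.71 FPKM).

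The limits cut through a continuous range. Just inside the leaf limit were TR40752|c0_g1_i1 at 101.57 FPKM and TR24229|c0_g2_i1 at 101.72 FPKM, followed by the Rieske transcript, each at 0 in the roots, and just outside were the lipocalin TR16437|c0_g1_i1 at 98.47, TR51879|c1_g2_i6 at 97.21 and TR32495|c0_g2_i1 at 97.19 FPKM. Just inside the root limit were the transcripts named above with 4.78, 4.74 and 4.71 FPKM, and just outside were TR36864|c0_g1_i1 with 5.20 FPKM in mother root, TR33653|c0_g1_i1 with 5.26 FPKM in rootlet and TR46085|c0_g1_i1 with 5.29 FPKM in daughter root. In 15 transcripts the lower counting limit in leaf fell under 100 FPKM, and in 63 an upper limit in a root exceeded 5 FPKM.

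A fixed root cap also left out the most abundant leaf transcripts. None of the 10 transcripts with the highest leaf FPKM was in the set, although 15 of the top 50 and 29 of the top 100 were. In those 10 the highest root level ranged from 5.75 to 85.14 FPKM, yet leaf exceeded the highest root 207-fold to 5414-fold. The highest of all, TR40739|c5_g1_i1, had 35010 FPKM in leaf, against 6.67 FPKM in mother root, 4.49 FPKM in daughter root and 4.73 FPKM in rootlet, and TR40739|c6_g1_i1 had 31132 FPKM in leaf, against 2.46 FPKM in mother root, 2.77 FPKM in daughter root and 5.75 FPKM in rootlet. If leaf was required instead to be at least 100 FPKM and at least 20 times the highest root, a form chosen after these values were seen, 259 transcripts qualified, 65 of them outside the set.

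**Figure D5:**
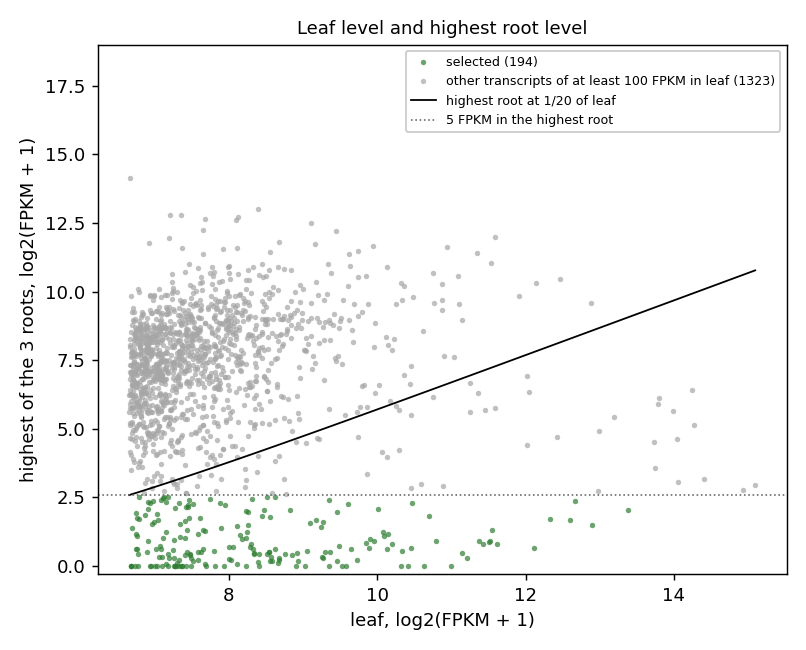
Leaf level (horizontal) against the highest of the 3 root levels (vertical), both as log2(FPKM + 1), for the 1517 transcripts with at least 100 FPKM in leaf. The 194 selected transcripts lie under the dotted line at 5 FPKM, and the solid line marks a highest root level at 1/20 of leaf, under which 65 further transcripts fall.

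The same limits turned to the other tissues found few transcripts. With at least 100 FPKM in the named tissue and at most 5 in the other 3, mother root had 2 (0.00154% of all transcripts), daughter root 25 (0.0193%) and rootlet 9 (0.00694%), which is 0.0970%, 1.22% and 0.392% of the transcripts with at least 100 FPKM in that tissue. A leaf transcript has 3 root libraries to be absent from, whereas a root transcript must also be absent from 2 other roots, so these counts are not like for like.

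The set was not made of short fragments. Its median length was 700.5 bases (224 to 3720), against 786 bases for the other 1323 transcripts of at least 100 FPKM in leaf and 368 bases over all transcripts, and 27.8% were under 500 bases, against 32.7% and 65.6%. Each member had between 47 and 27228 leaf fragments, with a median of 764. Among the single-copy orthogroups that could be read, a table at hand only in part, 20 of the 194 were found (10.3%), against 7.56% of the other 1323 transcripts of at least 100 FPKM in leaf and 1.40% of all transcripts. The highest of them in leaf was TR27080|c0_g1_i1 with 656.5 FPKM, against 0.44 FPKM in mother root and 0 FPKM in daughter root and rootlet.

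The terpenoid pathway list, whose enzymes supply the precursor of diterpene alkaloids and the first steps after it, was also compared with the limits. Of its 50 transcripts, 5 had at least 100 FPKM in leaf and 0 met the limits, beside 0.150% of all transcripts, so nothing is read from this count. The nearest was TR54754|c2_g1_i2, described as DXS, the first enzyme of the plastid route to terpenoid precursors, with 86.64 FPKM in leaf from 831 fragments, against 3.67 FPKM in mother root (92 fragments), 2.02 FPKM in daughter root (55 fragments) and 0.31 FPKM in rootlet (3 fragments). Another DXS transcript, TR46556|c4_g1_i1, had 213.33 FPKM in leaf, against 14.16 FPKM in mother root, 14.58 FPKM in daughter root and 14.43 FPKM in rootlet. Other DXS transcripts were higher in a root than in leaf, such as TR54749|c2_g1_i1 with 6.22 FPKM in leaf and 10.78 FPKM in daughter root.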

How the data were processed

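Per the labels and the published methods, RNA of 4 tissues (1 library each) was prepared with a strand-specific kit and sequenced in pairs. The authors trimmed reads with Trimmomatic, assembled all tissues together with Trinity, removed redundancy with CD-HIT-EST, aligned with Bowtie 2 and quantified with RSEM. No genome was used, so transcripts have no position. The deposited tables give per transcript the expected count, which was whole for every transcript, and FPKM, the main measure. The deposited TPM column served only as an alternative scale.

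The 4 tables were joined by transcript. Counting limits were exact 95% Poisson limits, and for ratios the conditional Clopper-Pearson limits. A count of 0 was replaced by a floor of 3 fragments per library for "at least" statements. Such statements leave out the counting error of the leaf level and are not 95% limits. Log2 ratios used a pseudocount of 1. With 1 library per tissue no count model was fitted and no p-value is given. The rule and the limits were tried on simulated data, with planted members of at least 500 bases at levels well away from both thresholds. Recovery near the thresholds or for shorter transcripts was not tested. Descriptions, never values, came from shortened copies of the supplementary tables. Equal depth meant drawing 4492151 fragments per library, 20 times with seed 1. Median-of-ratios factors rested on the 35605 transcripts of at least 1 FPKM in every library.

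Transcripts named were the 10 highest in leaf, all described ones, those next to a limit, the highest in each root, those of the genes with most members, and the 5 root-highest sister isoforms. List transcripts of at least 50 FPKM in leaf were named too, with some photosynthesis list transcripts below that level. Pathway transcripts had to have at least 50 FPKM in leaf and at most 10 FPKM in every root. The transcripts singled out for root differences, length or cluster, and TR40739, TR27080|c0_g1_i1, TR46556|c4_g1_i1 and TR54749|c2_g1_i1, were chosen after their values were seen. The members and lists were chosen with earlier results of these data known. Python 3.11.15, numpy 2.4.6, pandas 2.3.3, scipy 1.17.1 and matplotlib 3.10.9 were used.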

Additional observations from a re-analysis of the deposited data

How the results depend on the processing

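The number of selected transcripts, 194, was 367 with a leaf limit of 50 FPKM, 108 with 200 FPKM, 117 with a root cap of 1 FPKM, 34 with a cap of 0 and 120 where counting limits had to clear both thresholds. It was 157 on TPM, of which 147 were among the 194, and 195 with median-of-ratios factors. It was 193 on average at equal depth, 178 as summed genes, and 140 for transcripts of at least 500 bases. The share of leaf fragments, 7.65%, was 8.61% and 6.49% with leaf limits of 50 and 200 FPKM, 4.22% and 12.1% with root caps of 1 and 10 FPKM, 6.99% as summed genes, and 7.04% without the member of most leaf fragments. It was 18.9% where leaf had to be at least 20 times the highest root (259 transcripts), a form added after the data were seen. With FPKM recomputed on the full length, also added later, 166 transcripts qualified, 153 of them among the 194. The 34 members at 0 in all roots became 51.2 at equal depth and 72 with up to 2 root fragments allowed.

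Per 1000 leaf FPKM, the summed root level was 1.20 for mother root, 0.935 for the daughter root and 0.973 for the rootlet. Without the 10 members of highest leaf FPKM it was 1.85, 1.41 and 1.5 in that order, on TPM 1.38, 1.06 and 1.10, and with median-of-ratios factors 1.07 in mother root. The median log2 ratio of leaf to roots, 7.43, was 9.83 with a pseudocount of 0.1, 6.92 on TPM and 7.45 with median-of-ratios factors. The reverse rule gave 1 transcript for mother root on TPM and 1 with median-of-ratios factors in place of 2, and 0 of at least 500 bases, and for daughter root 11 of at least 500 bases in place of 25. With median-of-ratios factors mother root was the highest root in 55 transcripts, against 51 for daughter root and 54 for rootlet, and at equal depth rootlet had 56.4 and mother root 53.4. The cause of these shifts was not tested. No paired analysis was possible because each tissue had 1 library, and for the same reason no replicate could be left out.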
